A study of Homo sapiens with 12 samples.

Results

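The FOS, JUN, MAFF and ATF3 genes encode the subunits of the transcription factor AP-1 and its close relatives, and 9 of them were followed here: FOS, FOSB, FOSL1, FOSL2, JUN, JUNB, JUND, MAFF and ATF3. They were taken by gene symbol, with every row of the array that carries the symbol, which gave 17 probe sets (groups of short probes read out together as 1 signal) of the 22215 that are not controls, and 9 of the 11963 genes named on the array. Expression was measured on 12 Affymetrix arrays in the established human melanoma lines Malme3M, SkMel-1, SkMel-5, SkMel-19 and SkMel-28, all of genotype BRAFV600E, in which a mutated RAF kinase signals through MEK to ERK. Each line was exposed for 8 h to 0.1% DMSO, the solvent, or to 250 nM of the RAF inhibitor PLX4032, a drug also called vemurafenib. Only Malme3M and SkMel-19 received 1000 nM as well. Each combination of line and dose was measured on 1 array, which leaves 5 lines as replicates at 250 nM and 2 lines at 1000 nM. Every p-value therefore rests in part on how the change within a line varied from line to line, together with the noise of single arrays. In the limma fits the spread of a gene was also drawn toward that of genes of similar level. In the fits of SkMel-19 and Malme3M, DMSO and both doses share 1 estimate of the spread. An SE from those fits is thus not the spread between these lines alone. Repeat cultures of a line were not measured, and no line without BRAFV600E was part of the comparison.

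Array medians lay between 102.5 and 130.4 signal units. DUSP6 and SPRY4, feedback inhibitors that ERK signalling switches on, served as a check of drug action and fell by 5.04 and 3.29 on the log2 scale at 250 nM (SE 0.57 and 0.30, n = 5 lines, limma adjusted p = 0.000679 and 0.000277). Of 8 melanocyte markers, 7 were named on the array and all 7 had a mean above 85.7, the signal level used as a filter, with a summed signal of 31537.8 to 61473.6 under DMSO, 41528.3 to 65656.8 at 250 nM and 63033.9 to 63383.5 at 1000 nM. Of the 4 blood and 3 endothelial markers on the array, 0 had a mean above that level, and neither did PTPRC or PECAM1, which define those cells. Of 7 fibroblast markers 2 did (COL1A1 and LUM, list sum 630.0 to 1746.8 under DMSO and 622.9 to 2061.8 at 250 nM), and of 4 keratinocyte markers 2 did (KRT10 and CDH1, list sum 2287.2 to 6670.4 and 2628.5 to 7081.6), and 0 of the fibroblast and keratinocyte markers passed the test at 250 nM. Of the melanocyte markers 1 passed, MLANA, which rose by a small amount (0.20, SE 0.04, limma adjusted p = 0.01).

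AP-1 binds DNA as a pair of basic leucine zipper proteins, usually a FOS family member joined to a JUN family member. FOS and its relatives depend on a JUN partner, whereas JUN proteins can also pair among themselves and with ATF proteins. FOS is a classic immediate early gene that ERK switches on through SRF and its ternary complex cofactors, and ERK also phosphorylates and stabilises FOS and FOSL1 proteins. Small MAF proteins such as MAFF carry a zipper but no activation domain of their own and pair with FOS proteins or with the NFE2 family. In melanoma AP-1 is known for its link to invasion and to the less differentiated cell states.

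The table of RefSeq promoter sequences used here (assembly GRCh38.p14) held 8 of the 9 members, all but FOSL1, with 10 start sites. Those of FOS, JUN, JUND, MAFF and FOSL2, with the first of the start sites of MAFF, are shown. They set the presence or absence of the searched motifs beside the expression values. Each is the 250 bases before the start site, 5′ to 3′ on the strand of the gene, in lower case, with capitals marking an exact match to a searched motif. FOS lies on the plus strand (chr14:75278578-75278827), JUN on the minus strand (chr1:58784048-58784297), JUND on the minus strand (chr19:18281623-18281872), MAFF on the plus strand (first of its start sites, chr22:38201744-38201993) and FOSL2 on the plus strand (chr2:28392608-28392857).
FOS: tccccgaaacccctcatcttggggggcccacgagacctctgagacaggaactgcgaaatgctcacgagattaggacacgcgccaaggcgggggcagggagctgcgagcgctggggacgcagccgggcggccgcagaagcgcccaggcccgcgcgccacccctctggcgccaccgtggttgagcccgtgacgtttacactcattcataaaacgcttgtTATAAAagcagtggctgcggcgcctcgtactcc
JUN: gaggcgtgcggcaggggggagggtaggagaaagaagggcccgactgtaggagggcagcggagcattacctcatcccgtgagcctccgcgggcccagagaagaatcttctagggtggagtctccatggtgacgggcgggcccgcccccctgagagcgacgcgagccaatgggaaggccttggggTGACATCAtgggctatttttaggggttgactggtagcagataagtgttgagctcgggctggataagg
JUND: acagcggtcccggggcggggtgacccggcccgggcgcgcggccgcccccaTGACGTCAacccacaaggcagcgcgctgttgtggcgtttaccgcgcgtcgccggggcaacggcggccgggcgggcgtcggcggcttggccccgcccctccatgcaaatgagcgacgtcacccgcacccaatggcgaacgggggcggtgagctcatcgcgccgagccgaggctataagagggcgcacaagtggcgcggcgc
MAFF: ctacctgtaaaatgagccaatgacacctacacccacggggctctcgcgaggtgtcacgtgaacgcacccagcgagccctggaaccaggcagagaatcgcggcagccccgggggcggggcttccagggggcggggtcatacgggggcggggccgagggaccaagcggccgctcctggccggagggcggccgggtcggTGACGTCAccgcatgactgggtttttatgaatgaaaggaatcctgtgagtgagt
FOSL2: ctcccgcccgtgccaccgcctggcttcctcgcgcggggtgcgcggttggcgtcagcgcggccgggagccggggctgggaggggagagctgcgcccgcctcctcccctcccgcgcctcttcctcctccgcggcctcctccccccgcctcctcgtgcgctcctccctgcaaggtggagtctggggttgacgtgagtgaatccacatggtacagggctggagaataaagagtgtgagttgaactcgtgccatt
Both strands of every window were searched for the AP-1 site TGACTCA, the cyclic AMP response element TGACGTCA, the site TGACATCA that JUN and ATF proteins bind, and the TATA box letters TATAAA. None of these strings contains another. The AP-1 site TGACTCA was in 0 of the 8 members' windows, against 4.2% of 35116 windows of all genes. TGACGTCA was found in MAFF, 54 to 47 bases before its start, and in JUND, 200 to 193 bases before it (1.65% of all windows). TGACATCA was found in JUN, 67 to 60 bases before the start, and in a window of ATF3, 123 to 116 bases before it (2.37% of all windows). TATAAA lay 33 to 28 bases before the start of FOS, 30 to 25 before FOSB, 31 to 26 before JUNB and 230 to 225 before a second start site of ATF3 (10.7% of all windows). FOSL2 held none of these strings. A match describes letters and not binding.

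The first comparison asked which members changed within 8 h of RAF inhibition at 250 nM. Across all 9 members, tested without a signal filter, 5 were lower (FOS, FOSL1, JUN, JUND and MAFF) and 1 was higher (FOSL2) at a limma adjusted p under 0.05, while FOSB, JUNB and ATF3 did not pass. Of all 11963 genes in that fit, 6.6% were lower and 7.22% higher. The median log2 change of the 9 was -0.96, and that of all genes 0.05. With the filter, which asks for a mean log2 level of at least 6.61, 7178 genes were tested, of which 13.1% were lower and 15.2% higher, and 7 of the 9 members were among them. FOS and FOSB fell below the filter, so their values are from the fit without it, and those of the other members are from the fit with it. FOSL1 reached the filter through its DMSO arrays, and it passed without a filter as well (limma adjusted p = 0.00061). All log2 changes are on the scale log2(signal + 12), which understates the change of dim genes. The arrays measured RNA from whole cultures, so fewer cells of a kind and less RNA per cell cannot be told apart.

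**Figure D1:**
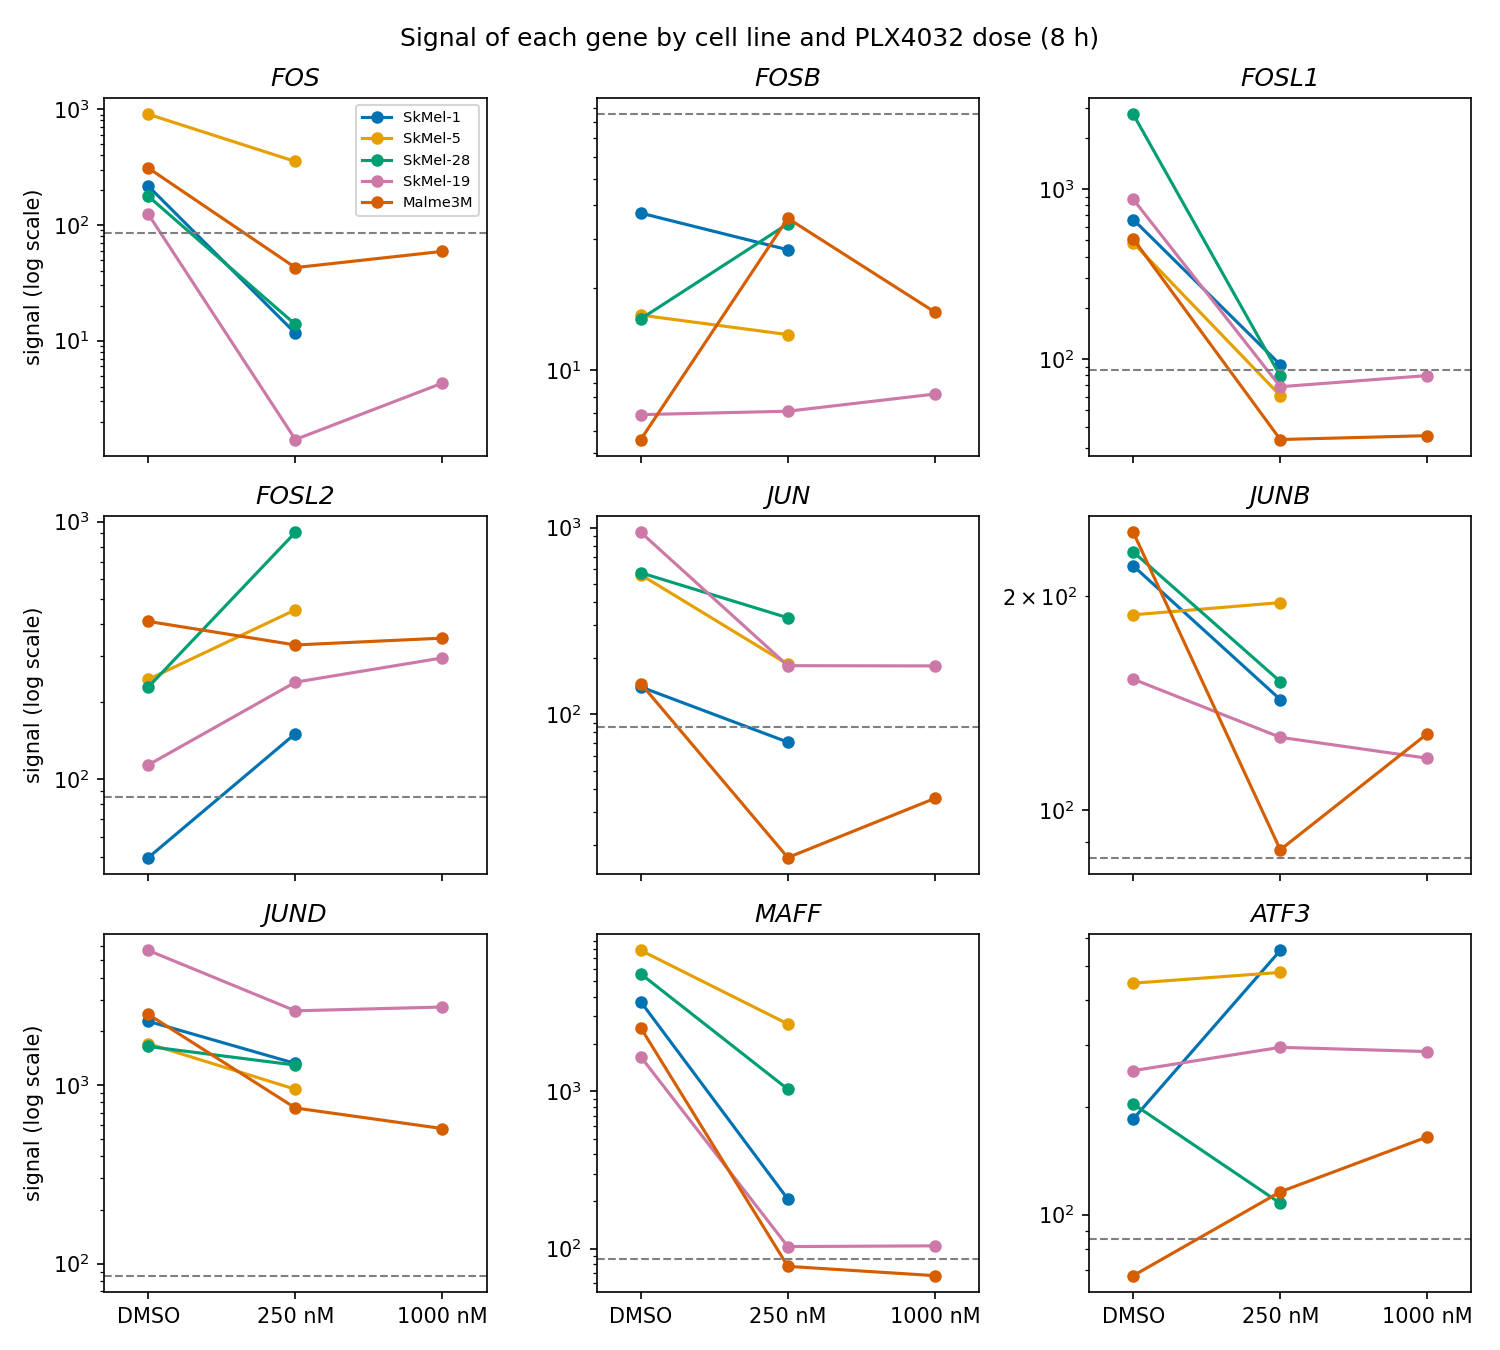
Signal (log axis, arbitrary units) of the brightest probe set of each of the 9 genes, against PLX4032 dose, with 1 point per array and lines joining the arrays of a cell line; the dashed line is the filter level, 85.7. FOSL1 drops from between 482.1 and 2751.9 to between 33.6 and 92.5 in the 5 lines, FOSL2 rises in 4 of them, and FOSB stays under the dashed line on all 12 arrays.

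FOSL1, which encodes FRA-1, a FOS family subunit known to depend on ERK activity, fell in every line. Its signal (204420_at) under DMSO was 661.3 in SkMel-1, 482.1 in SkMel-5, 2751.9 in SkMel-28, 869.1 in SkMel-19 and 508.5 in Malme3M. At 250 nM it was 92.5, 60.9, 79.4, 68.7 and 33.6 in the same order. Every treated array lay below every DMSO array, which was so for 1 of the 17 probe sets (0.788% of all 22215 were so, and 5.11% were called lower by limma). SkMel-28, the highest line under DMSO, lay within the range of the others after treatment. The highest line was 5.71 times the lowest under DMSO and 2.75 times at 250 nM, with means of 1054.6 ± 961.2 and 67.0 ± 22.1 (SD, n = 5 lines). The fitted log2 change was -3.47 (SE 0.28, 95% confidence interval -4.10 to -2.84, 11.0-fold lower, limma adjusted p = 0.000181), with falls in all 5 lines, from -2.69 in SkMel-1 to -4.92 in SkMel-28. Since 4 of the 5 treated arrays were under 85.7, the size depends on how dim values are treated, and with all values under that level raised to it the change was -3.09.

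FOS, the founding member of the family and a rapidly induced and degraded transcript, fell in all 5 lines as well. The signal (209189_at) was 216.5 in SkMel-1, 904.3 in SkMel-5, 177.1 in SkMel-28, 123.9 in SkMel-19 and 310.3 in Malme3M under DMSO. Treated arrays gave 11.6, 353.4, 13.8, 1.4 and 42.8. SkMel-5 was the highest line in both groups, and its treated array lay above 4 of the 5 DMSO arrays, so the groups overlap although each line fell. The log2 changes were -3.28, -1.33, -2.87, -3.34 and -2.56, with SkMel-5 the smallest. The fit without a filter gave -2.67 (SE 0.28, 95% confidence interval -3.31 to -2.04, limma adjusted p = 0.00121). With each line left out in turn, over every probe set, the change lay between -3.01 and -2.51 and passed in 5 of 5 cases. Because 4 of the 5 treated arrays were under 85.7, the size depends on the pseudocount, and with 50 in place of 12 it was -1.78.

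FOSL2, which encodes FRA-2, was the single member called higher at 250 nM. Its brightest probe set (218880_at) read 49.8 in SkMel-1, 244.4 in SkMel-5, 228.2 in SkMel-28, 113.9 in SkMel-19 and 410.0 in Malme3M under DMSO. At 250 nM the signals were 150.6, 454.9, 908.2, 238.4 and 332.3. Malme3M had the highest signal under DMSO and was the line without a rise, and the groups overlap. The log2 changes were 1.40, 0.86, 1.94 and 0.99 in the SkMel lines, in the order given, and -0.29 in Malme3M. The fitted change was 0.98 (SE 0.26, 95% confidence interval 0.39 to 1.56, limma adjusted p = 0.0226). The call was lost without SkMel-1 (0.88, limma adjusted p = 0.0691), SkMel-28 (0.74, 0.0721) or SkMel-19 (0.98, 0.0648), and in the fit over every probe set (0.0541). The other probe sets of FOSL2, 205409_at and 218881_s_at, had changes of 0.80 and 0.64 and did not pass (limma adjusted p = 0.115 and 0.0529), with 4 of 5 and 5 of 5 lines higher.

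FOSB, another immediate early member, was under 85.7 on all 12 arrays, between 5.6 and 37.4 under DMSO and between 7.1 and 35.8 at 250 nM. The mean change was 0.35 (202768_at, SE 0.26, 95% confidence interval -0.25 to 0.95, limma adjusted p = 0.43, no filter), with 3 lines higher and 2 lower, and missed the threshold. At signals this low a change was not measurable with these arrays.

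JUN, the founding member of the JUN family and the usual partner of FOS, fell in all 5 lines by its brightest probe set. The 201464_x_at signal under DMSO was 140.3 in SkMel-1, 559.5 in SkMel-5, 573.4 in SkMel-28, 944.2 in SkMel-19 and 146.2 in Malme3M. It was 71.0, 185.4, 329.1, 182.3 and 17.1 at 250 nM. SkMel-1 and Malme3M were low in both groups, and the groups overlap. The log2 changes were -0.88, -1.53, -0.78, -2.30 and -2.44, larger in SkMel-19 and Malme3M than in the other lines. The fit gave -1.59 (SE 0.25, 95% confidence interval -2.14 to -1.03, limma adjusted p = 0.00256). The other 3 probe sets of JUN were dim and did not pass, at -0.77 for 201465_s_at, -0.91 for 201466_s_at and -0.21 for 213281_at (limma adjusted p = 0.202, 0.072 and 0.612 over every probe set), although 201466_s_at passed without SkMel-1 (-1.17, limma adjusted p = 0.0382). The call for JUN thus rests on a probe set whose suffix, _x_at, marks probes that can also match other transcripts.

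JUND, the JUN family member that is expressed most steadily in resting and growing cells, fell in all 5 lines by a smaller amount. The 203752_s_at signal was 2275.8 in SkMel-1, 1706.2 in SkMel-5, 1644.5 in SkMel-28, 5675.3 in SkMel-19 and 2488.0 in Malme3M under DMSO. At 250 nM it was 1321.5, 947.1, 1293.6, 2604.1 and 744.3. SkMel-19 was the highest line in both groups, and its treated array lay above 4 of the 5 DMSO arrays. The fitted change was -0.96 (SE 0.16, 95% confidence interval -1.33 to -0.60, limma adjusted p = 0.00348), from -0.34 in SkMel-28 to -1.72 in Malme3M. With the mean of all 3 probe sets in its place the change was -0.64 and did not pass (limma adjusted p = 0.0717). All 3 probe sets end in _s_at or _x_at, so JUND was not tested where such probe sets were left out. The dimmer 203751_x_at gave -0.64 and 214326_x_at -0.33 (limma adjusted p = 0.106 and 0.717 over every probe set). The last had a signal of 5.5 in SkMel-28 under DMSO and 64.2 at 250 nM, opposite to the other 4 lines, and passed without SkMel-28 (-0.94, limma adjusted p = 0.0439).

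JUNB, an immediate early JUN family member that can restrain JUN, did not pass. Its signal (201473_at) was 220.8 in SkMel-1, 188.4 in SkMel-5, 231.1 in SkMel-28, 152.9 in SkMel-19 and 246.2 in Malme3M under DMSO, and 143.1, 196.0, 151.7, 126.6 and 87.9 at 250 nM. It was lower in 4 of 5 lines, with SkMel-5 at 0.05 and Malme3M at -1.37. The mean log2 change was -0.54 (SE 0.19, 95% confidence interval -0.96 to -0.13, limma adjusted p = 0.0546). It passed in 3 of 15 alternative settings with the line as a block: each array centred on its median (0.0479), a fit over all 12 arrays (0.0402), and without SkMel-5 (-0.69, 0.0312).

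MAFF fell in every line by both of its probe sets. The brighter, 36711_at, read 3712.1 in SkMel-1, 7878.5 in SkMel-5, 5585.7 in SkMel-28, 1658.3 in SkMel-19 and 2532.8 in Malme3M under DMSO. At 250 nM the signals were 206.3, 2682.3, 1031.2, 102.9 and 77.0. SkMel-5 kept the highest signal after treatment, above 2 of the 5 DMSO arrays, so the groups overlap through that line alone. The log2 changes were -4.09, -1.55, -2.42, -3.86 and -4.84, and the fit gave -3.35 (SE 0.40, 95% confidence interval -4.25 to -2.45, 10.2-fold lower, limma adjusted p = 0.000783). The second probe set, 205193_at, ran from 434.4 to 2091.2 under DMSO and from 82.2 to 751.4 at 250 nM, with a change of -2.44 (SE 0.27, limma adjusted p = 0.00182 over every probe set). SkMel-5 also had the smallest fall by 205193_at, 1.46, as it had for FOS.

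ATF3, a zipper protein of the ATF family that stress induces and that pairs with JUN proteins, did not pass. The signal (202672_s_at) was 185.6 in SkMel-1, 446.6 in SkMel-5, 204.5 in SkMel-28, 253.7 in SkMel-19 and 67.4 in Malme3M under DMSO, and 552.0, 478.8, 107.6, 295.0 and 115.9 at 250 nM. The lines differed in direction, with 4 higher, most of all SkMel-1 at 1.51, and SkMel-28 lower at -0.86. The mean change was 0.33 (SE 0.27, 95% confidence interval -0.28 to 0.94, limma adjusted p = 0.387).

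**Figure D2:**
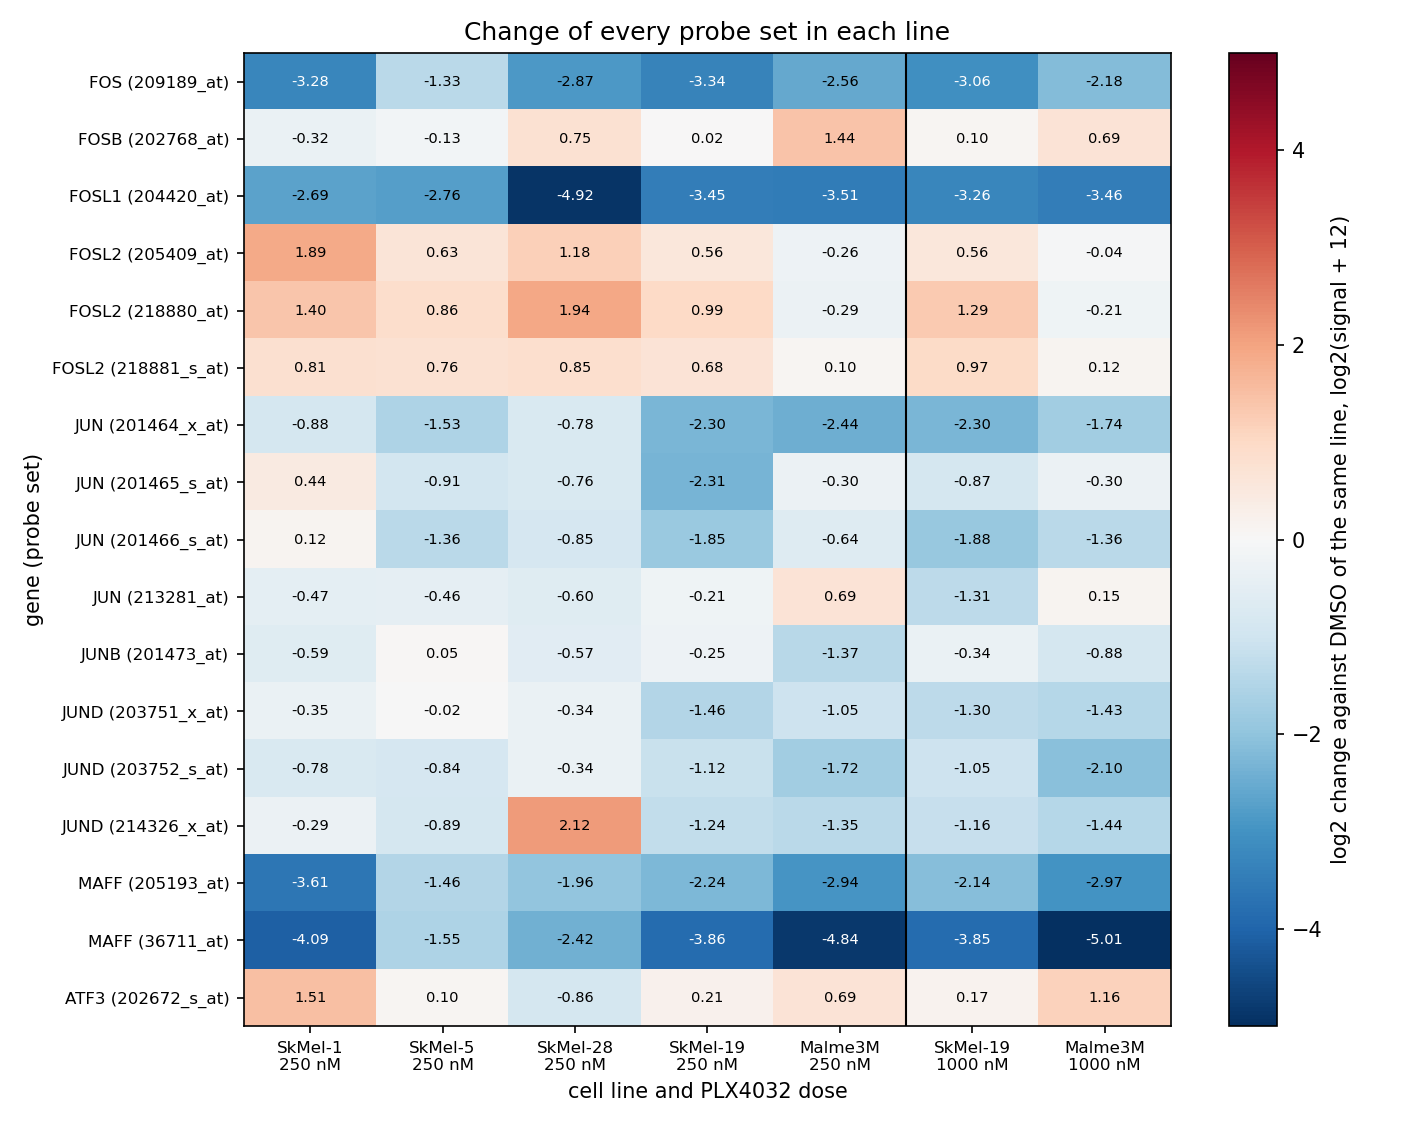
Log2 change against DMSO of the same line for all 17 probe sets (rows) in each line and dose (columns), on the log2(signal + 12) scale, blue for lower and red for higher, with the value printed in each cell. FOS, FOSL1, JUN 201464_x_at, JUND 203752_s_at and both MAFF probe sets are lower in all 7 columns, and FOSL2 is higher in the SkMel lines by all 3 of its probe sets.

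Over all 17 probe sets, fitted together with the 22215 of the array, 6 were lower at 250 nM and 0 were higher, against 5.11% and 5% of all probe sets. The 6 were those of FOS and FOSL1, both of MAFF, 201464_x_at of JUN and 203752_s_at of JUND. In all, 12 of the 17 had a negative mean change and 5 a positive one, the latter being the 3 of FOSL2 and those of FOSB and ATF3. None of these 5 was called. Of them, 2 of FOSL2 (218880_at and 218881_s_at) had unadjusted limma p-values of 0.00573 and 0.00553, and 1, 218880_at, was called without Malme3M (1.30, limma adjusted p = 0.0121).

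Related members were also set against each other within each line. The log2 change of FOSL1 minus that of FOSL2 averaged -4.44 (SD 1.42, n = 5 lines), negative in 5 of 5 lines and between -6.86 and -3.22. The exact two-sided sign-flip test gave p = 0.062, the smallest that 5 lines allow (0.0938 after adjustment over 3 pairs), so no pair could pass 0.05. JUN changed by -0.62 relative to JUND (SD 0.40, n = 5 lines, exact p = 0.062, adjusted 0.0938), negative in 5 of 5 lines, but with a pseudocount of 50 the difference was -0.34 and negative in 3 of 5 lines (exact p = 0.25). JUNB against JUND gave 0.42 (SD 0.47, n = 5 lines, exact p = 0.188), with 1 of 5 lines negative.

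The second comparison asked whether the higher dose gave the same changes in SkMel-19 and Malme3M. Without a filter 5 of the 9 members were lower at 1000 nM and 0 were higher, against 2.09% of genes lower. At 250 nM in these lines 5 were lower, against 1.81%. In the fits with the filter, FOSL1, JUN, JUND and MAFF were lower at both doses and 0 of the members tested were higher, where 5.89% of genes were lower and 5.29% higher at 1000 nM, and 5.36% and 5.98% at 250 nM. The doses share the single DMSO array of each line, so their changes against it are not separate evidence.

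At 1000 nM FOSL1 read 79.9 in SkMel-19 and 35.4 in Malme3M, close to its signals of 68.7 and 33.6 at 250 nM. All of these signals were under 85.7. Its log2 change was -3.36 at 1000 nM (SE 0.17, limma adjusted p = 0.00101) and -3.48 at 250 nM in the same lines. MAFF read 104.0 and 67.2, a change of -4.43 (SE 0.28, limma adjusted p = 0.00196), beside -4.35 at the lower dose. JUND read 2735.3 and 570.8 and changed by -1.58 (SE 0.23, limma adjusted p = 0.0143), beside -1.42. By line, in SkMel-19 and Malme3M, the changes at 1000 nM were -3.85 and -5.01 for MAFF and -1.05 and -2.10 for JUND. These lie further apart than the SEs alone would convey.

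JUN read 181.8 in SkMel-19, within a unit of its 182.3 at 250 nM, and 35.5 in Malme3M, above its 17.1 there. Its changes were -2.02 at 1000 nM and -2.37 at 250 nM (SE 0.22 for both, limma adjusted p = 0.00738 and 0.00539). With values under 85.7 raised to it both became -1.50 and did not pass (limma adjusted p = 0.102), since the Malme3M arrays were under that level. FOS read 4.3 and 59.1, with a change of -2.62 (SE 0.31, limma adjusted p = 0.0182, no filter) beside -2.95 at 250 nM.

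FOSL2 differed between these lines at both doses. SkMel-19 rose from 113.9 to 238.4 and 296.1, log2 changes of 0.99 and 1.29, whereas Malme3M went from 410.0 to 332.3 and 353.2, changes of -0.29 and -0.21. The mean over the lines did not pass at 1000 nM (0.54, SE 0.35, limma adjusted p = 0.332). ATF3 had changes of 0.17 and 1.16 at 1000 nM, with a mean of 0.66 that missed the threshold (SE 0.25, limma adjusted p = 0.128). JUNB had changes of -0.34 and -0.88, with a mean of -0.61 that also missed it (SE 0.28, limma adjusted p = 0.187). FOSB stayed under 85.7, at 8.2 and 16.3.

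Between the doses themselves 0 of 7178 genes passed (0% called), and 75 genes had an unadjusted limma p under 0.05, none of them a member. That count is below the share of 0.05 that would be called with no difference at all. The spread used here also holds how the lines differ in their response against DMSO. The lack of calls thus does not show that the doses act alike. The intervals of the difference, 1000 nM minus 250 nM, bound what these arrays could have missed. They were -0.28 to 0.53 for FOSL1 (estimate 0.12), -0.77 to 0.62 for MAFF (-0.08), -0.19 to 0.89 for JUN (0.35) and -0.72 to 0.41 for JUND (-0.15). Those of FOSL2 (-0.67 to 1.06), FOS (-0.43 to 1.09, no filter) and FOSB (-1.25 to 0.57, no filter) were wider and include a change of 1 log2 unit.

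**Figure D3:**
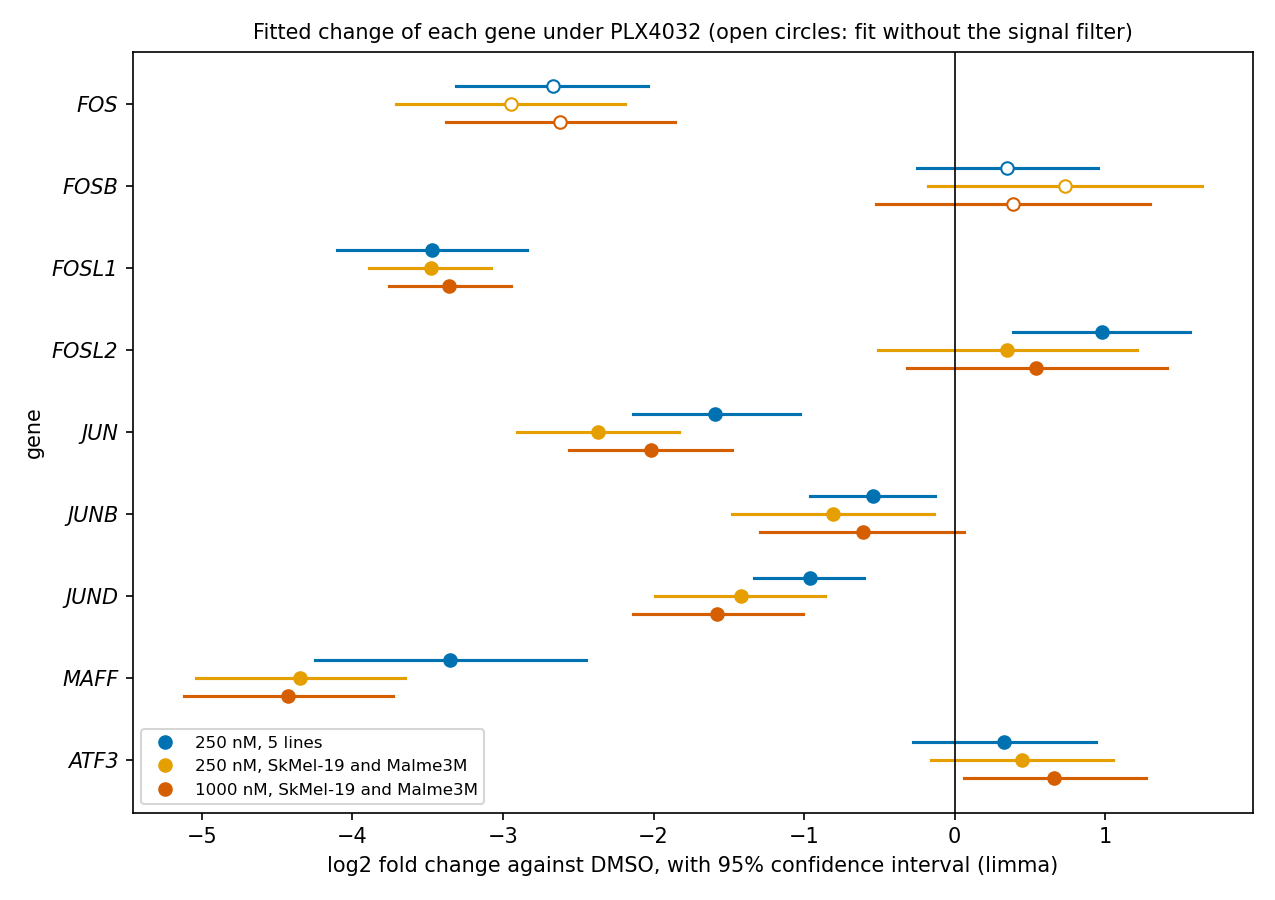
Fitted log2 change against DMSO (horizontal axis, log2(signal + 12) scale) of each gene with its 95% confidence interval from limma, at 250 nM in 5 lines and at 250 nM and 1000 nM in SkMel-19 and Malme3M; open circles mark FOS and FOSB, fitted without the filter. The intervals of FOS, FOSL1, JUN, JUND and MAFF lie below 0 in all 3 comparisons, and that of FOSL2 lies above 0 in the 5 lines and spans it in the pair of lines.

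The lines also differed from each other before treatment, member by member. Under DMSO, SkMel-28 had the highest FOSL1, SkMel-5 the highest FOS, MAFF and ATF3, SkMel-19 the highest JUN and JUND, and Malme3M the highest FOSL2 and JUNB. The highest line was 7.30 times the lowest for FOS, 8.23 for FOSL2, 6.73 for JUN, 6.63 for ATF3 and 4.75 for MAFF, and 1.61 for JUNB. With 1 array per line and dose there is no spread within a line, so neighbours in these orders cannot be told apart by a test.

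Over the 12 arrays, which share 5 lines, the log2 levels of FOSL1 correlated with those of MAFF (Pearson r = 0.78), JUNB (0.74), JUN (0.70) and JUND (0.58), and hardly with ATF3 (-0.07), while FOSL2 ran the other way (-0.48). MAFF and JUNB had the highest value of any pair of members tested, 0.88. The genes whose levels were most like FOSL1 were ETV1, an ETS family transcription factor (r = 0.954, log2 change -2.14 at 250 nM), the kinase gene STK17A (0.947, -1.59) and the deubiquitinase gene OTUD4 (0.937, -0.74). For JUN they were the complex I assembly factor gene NDUFAF4 (0.939, -0.41) and the ribosome biogenesis genes WDR3 (0.938, -1.06) and MRTO4 (0.922, -0.99). For FOSL2 they were TNS3, a focal adhesion tensin (0.925, 0.78), FAM118A (0.918, 0.19) and DET1, part of a ubiquitin ligase (0.910, 0.50). All of these passed at 250 nM except FAM118A (limma adjusted p = 0.226), where 13.1% of all genes were lower and 15.2% higher. The genes were picked over the same DMSO and treated arrays, so their calls are not separate evidence. The correlations are descriptions over arrays of the same lines and doses.

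Partners that AP-1 proteins can pair with, other basic leucine zipper genes, moved in both directions. Of 28 listed, 18 were tested at 250 nM, and 4 were lower and 3 higher, with a median change of -0.08 beside 0.03 for all genes tested, of which 13.1% were lower and 15.2% higher. MAF, a large MAF factor, rose (1.32, SE 0.22, limma adjusted p = 0.00347), as did DDIT3, the stress factor CHOP (0.85, SE 0.18, limma adjusted p = 0.00926). CREB5, a CREB family partner of JUN, fell (-1.12, SE 0.20, limma adjusted p = 0.00507), as did MAFG, another small MAF gene (-0.63, SE 0.12, limma adjusted p = 0.00694). Each of these moved the same way in 5 of 5 lines. At 1000 nM 2 of the 18 were lower and 3 higher, against 5.89% and 5.29% of all genes. The largest of these changes were those of MAF (1.40), DDIT3 (1.34), CREB5 (-1.23) and ATF4, the integrated stress response factor (1.07, limma adjusted p = 0.031).

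Kinases and SRF cofactors that act upstream of FOS and JUN also moved in both directions at 250 nM. Of 25 listed, 18 were tested, with 4 lower, 3 higher and a median of -0.02 at 250 nM, where 13.1% of all genes were lower and 15.2% higher. ELK3, a ternary complex factor that binds beside SRF, had the largest change (-1.68, SE 0.17, limma adjusted p = 0.0004), lower in 5 of 5 lines. RPS6KA5, the kinase MSK1, also fell (-0.70, SE 0.18, limma adjusted p = 0.0187). MAP2K6, an activator of p38 kinases, and MAP2K5, the activator of ERK5, rose (0.89 and 0.59, limma adjusted p = 0.00559 and 0.00653). At 1000 nM, where 5.89% of genes were lower and 5.29% higher, ELK3 (-1.91) and RPS6KA5 (-1.11) were lower and 0 of the list were higher.

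Genes described as AP-1 targets were lower more often than higher. Of 34 listed, 18 were tested at 250 nM, with 8 lower, 3 higher and a median of -0.34 beside 0.03 for all genes, of which 13.1% were lower and 15.2% higher. The largest falls were those of CCND1, which encodes cyclin D1 (-3.09, SE 0.30), the cytokine gene LIF (-2.58, SE 0.36), PLAUR, the urokinase receptor (-1.48, SE 0.20), and VEGFA, the angiogenic growth factor (-0.98, SE 0.24), with limma adjusted p between 0.000349 and 0.017. The 3 that rose, named after their values were seen, were SPP1, the matrix protein osteopontin (0.89), the collagenase gene MMP2 (0.57) and CD44, the hyaluronan receptor (0.27). At 1000 nM 5 of the 18 were lower and 3 higher, with a median of -0.43, against 5.89% and 5.29% of all genes. The largest changes there were those of CCND1 (-3.87, SE 0.31), PLAUR (-1.72, SE 0.33), SPP1 (1.68, SE 0.11) and KRT18, a keratin (-1.15, SE 0.27), with limma adjusted p between 0.00221 and 0.0472. Many of these genes also respond to other factors, and AP-1 binding was not measured.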

How the data were processed

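Expression was measured on 12 arrays, and the deposited table holds a linear signal intensity for each probe set on each array. The submitters' processing notes name GCOS, Affymetrix's own software, without a version. No source used here says how probes were summarised. The mean intensity without the lowest and highest 2% was 500.1 on every deposited array, so values were used on that scale.

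Values were taken as log2(value + 12), where 12 is the 20th percentile. The 62 control probe sets were left out. Of the other 22215, 19064 had 1 gene symbol, 1043 several and 2108 none, and 19052 were matched to RefSeq genes by Entrez ID, with 0 symbols changed. Where a gene had several probe sets, the brightest on average stood for it. The filter kept genes at or above the 40th percentile of mean log2 level (6.61, signal 85.7), 7178 of 11963.

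Groups were compared with limma 3.58.1 in R 4.3.3 (lmFit and eBayes, prior variance with a trend, Benjamini-Hochberg over all genes or probe sets tested, called under 0.05), and each fit had the cell line as a block: 10 arrays for 250 nM (4 residual degrees of freedom) and the 6 of SkMel-19 and Malme3M for 1000 nM (2). The block follows from the labels, which name the line of each array. With group means subtracted, the correlation of a line's DMSO and 250 nM arrays was 0.898 to 0.931, and between lines it was at most -0.135. Subtracting the group means by itself lowers correlations between lines, so the latter value is no finding about the lines. Pairs of members were compared by an exact sign-flip test. The steps were tested on simulated data. Alternatives were other pseudocounts, filters, scalings and probe set rules, no block, and leaving out each line.

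All 9 members are named with every probe set. From each list the 4 called genes with the largest change are named, and for FOSL1, JUN and FOSL2 the 3 genes with the highest correlation. Members and lists were chosen with earlier results of these data known. Plots were made in Python 3.11.15 (matplotlib 3.10.9).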

Additional observations from a re-analysis of the deposited data

Results flagged for a closer look

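FOSL2 (218880_at) moved in opposite directions in the lines measured at both doses. In SkMel-19 its log2 change was 0.99 at 250 nM and 1.29 at 1000 nM. In Malme3M it was -0.29 at 250 nM and -0.21 at 1000 nM. The difference between the lines was not tested, since each line had 1 array per dose, and both changes of a line share its single DMSO array. By 205409_at the values were 0.56 and 0.56 in SkMel-19 and -0.26 and -0.04 in Malme3M, and by 218881_s_at they were 0.68 and 0.97 against 0.10 and 0.12, which is the same direction in both lines. A search for single lines that stood apart, over 27 groups of values, found 0. The groups were the log2 level under DMSO, the level at 250 nM and the change at 250 nM of each member. Only the brightest probe set of each member was searched.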

How the results depend on the processing

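No value that passed its test changed sign under any alternative run, whereas FOSL2 in the pair of lines, which did not pass, was below 0 without SkMel-19 at both doses. Without the replicate block, which pairs the arrays of a line, 1 member (FOSL1) was lower at 250 nM in place of 4, and 0 were higher in place of 1. Without the block 0 were lower at 1000 nM, 0 at 250 nM in SkMel-19 and Malme3M, and 1 of the 17 probe sets at 250 nM. Over all genes the unblocked fits called 13 at 250 nM (12 lower, 1 higher) against 2029, and 0 against 803 at 1000 nM (353 at an unadjusted p under 0.05) and 0 against 814 at 250 nM in the pair of lines (341). With each line left out in turn, the members called higher at 250 nM numbered 0 to 1 (0 without SkMel-1, SkMel-28 or SkMel-19), and the probe sets called higher 0 to 1 (1 without Malme3M). That count was 1 with a pseudocount of 1 and 1 among probe sets at or above the filter level. Over all genes, 1288 were called at 250 nM when SkMel-19 was left out and 1339 when Malme3M was, and the 1000 nM count was 445 without a filter, 460 with dim values raised to the filter level and 530 without the variance trend; in the pair of lines at 250 nM the first 2 were 430 and 468. Over the alternatives with a test, single members lost a call in 18 cases and gained one in 3, the last all for JUNB. That tally leaves out members that an alternative did not test. JUN was not tested with the mean of all probe sets of a gene. With probe sets ending in _s_at or _x_at left out, neither JUN nor JUND was tested at 250 nM, so neither had a call. Where not stated otherwise, the cause was not tested. Leaving out a line at 1000 nM leaves 1 line, so it gave values with no test.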
